A study of Mus musculus with 6 samples.

Results

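The 57 genes described here encode parts of the mitochondrial respiratory chain: the 13 mRNAs of the mitochondrial genome, 36 nuclear genes of complex I and 8 nuclear genes of complex III. They were taken by symbol from the 55401 genes of a count table of mouse spinal cord microglia, and all 57 had enough counts to be tested, among 16248 genes in all. Microglia are macrophages that live in the brain and spinal cord. Here they were isolated with beads coated against CD11b, an integrin of myeloid cells, from spinal cords of untreated mice aged 7 months. Controls were non-transgenic C57BL/6 mice (NTg), and the other group was heterozygous for a knock-in of the human ATXN2 allele of 33 glutamines and for human TDP-43 (ATXN2-Q33;TDP-43, called double mutants here). The 2 proteins bind RNA and have been tied to motor neuron disease; what drives the human TDP-43 is not given in the sources used here. Each group had 9 animals in 3 libraries, each from a pool of 3 cords. Libraries are named by the number in their titles: NTg replicates 7, 9 and 11, and double-mutant replicates 8, 10 and 12.

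The respiratory chain is built from 2 genomes. The mitochondrial genome is read from both strands into long transcripts that are cut into single mRNAs, rRNAs and tRNAs, mostly at the tRNAs that lie between them. It encodes the hydrophobic cores of complex I (NADH dehydrogenase), complex III (cytochrome bc1), complex IV (cytochrome c oxidase) and the ATP synthase, and all other subunits come from nuclear genes and are imported. The comparison asks whether the RNA of the mitochondrial and the nuclear subunits differed between the genotypes, and whether they moved apart.

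Library totals ran from 12553570 counts (NTg replicate 7) to 22854628 counts (NTg replicate 11). Genes of chromosome M took 4.66% to 5.71% of the counts, most of it the 2 rRNAs (4.06% to 4.98%), although the RNA had been depleted of rRNA, and the 13 mRNAs took 0.562% to 0.705%. The 10 microglial markers checked summed to 10887 to 15869 CPM (CPM, the counts as a rate on the TMM-scaled library size), and all were detected. Other cells were represented too: 7 oligodendrocyte markers summed to 178, 1604 and 439.6 CPM for NTg against 343, 1065 and 164 CPM for the double mutants, and 8 neutrophil markers to 589, 150.1 and 369 CPM for NTg against 1542, 973 and 51.00 CPM for the double mutants. All 8 neutrophil, 5 monocyte and 5 erythroid markers had positive log2 fold changes in the double mutants, with medians of 1.22, 1.05 and 0.73, and so had the 4 ependymal markers tested, with a median of 1.38. None of them was called. The 6 ependymal markers listed summed to 10.6, 21.1 and 14.1 CPM for NTg against 18.03, 63.8 and 30.5 CPM for the double mutants. NTg replicate 9 and double-mutant replicate 10 were highest for oligodendrocyte and endothelial markers. The part of these other cells in the values below was not tested, and in bulk RNA fewer cells of a type and less RNA per cell cannot be told apart.

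None of the 57 genes passed the test for a difference between the genotypes. All fold changes are on the log2 scale, double mutants minus NTg. Across all 16248 genes, the quasi-likelihood test of edgeR, Benjamini-Hochberg adjusted at 0.05, called 0 genes (0%). At an unadjusted p under 0.05 there were 368 genes (2.26%; 0.862% lower and 1.4% higher in the double mutants), 1 of them among the 57 and lower, and DESeq2 called 7 genes (0.0431%), none of them among the 57. No overlap between the genotypes was seen at 6.85% of all genes, with the double mutants lower at 3.58% and higher at 3.27%. Among the 57, mt-Nd1, mt-Nd4 and Ndufa7 lay lower without overlap and Ndufa3, Ndufa10 and Ndufs6 higher. The 95% interval of the fold change stayed within 1.5-fold in both directions for 9 of 13 mitochondrial mRNAs, 21 of 36 complex I genes and 7 of 8 complex III genes.

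**Figure D1:**
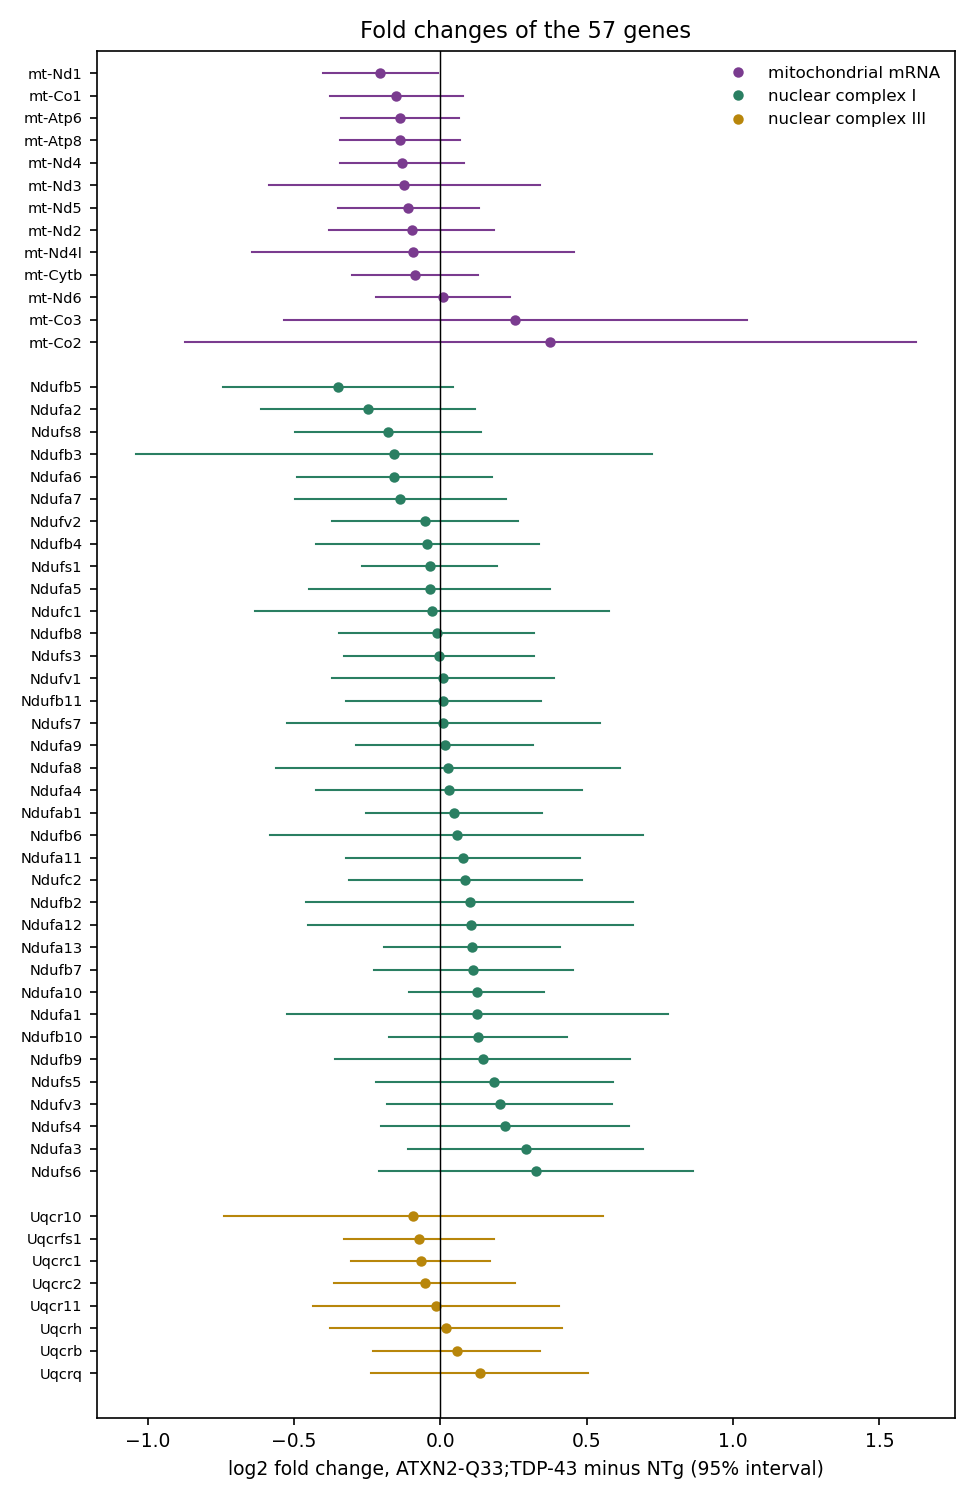
Log2 fold change, ATXN2-Q33;TDP-43 minus NTg (x axis), of each of the 57 genes (y axis), with the 95% interval of edgeR's fit as a bar, grouped as mitochondrial mRNAs, nuclear complex I and nuclear complex III and ordered by fold change. 10 of 13 mitochondrial mRNAs lie left of 0, against 13 of 36 complex I genes and 5 of 8 complex III genes, and the bar of mt-Nd1 alone does not reach 0.

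The nuclear genome holds copies of parts of the mitochondrial genome, and the mitochondrial mRNAs differ in how far their reads can be told from reads of such copies. A block of 7 annotated copies lies on chromosome 1 (mm10, minus strand), in the same order as the genes they match: Gm29216 (mt-Co1), Gm28661 (mt-Co2), Gm10925 (mt-Atp6), Gm28437 (mt-Co3), Gm28438 (mt-Nd3), Gm10222 (mt-Nd4l) and Gm28439 (mt-Nd4). The whole Gm28661 transcript, 681 bases at chr1:24614885-24615565, was identical to mt-Co2 (684 bases, chrM:7013-7696). Gm28438 differed from mt-Nd3 (chrM:9459-9806) by T3C, counted from the first base of the gene, and then matched it for 342 bases. The first 60 bases of both pairs show how little there is to tell a read of one from a read of the other, with bases that differ in capitals.
mt-Co2: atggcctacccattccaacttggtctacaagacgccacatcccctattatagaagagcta
Gm28661: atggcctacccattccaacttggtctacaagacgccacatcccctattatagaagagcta
mt-Nd3: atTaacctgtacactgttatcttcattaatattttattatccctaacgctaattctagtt
Gm28438: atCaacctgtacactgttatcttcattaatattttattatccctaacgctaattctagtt

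To measure this for every gene, each transcript was broken into all its words of 50 bases. Each word was sought in transcripts of other genes, out of 141767 annotated transcripts in all. All words of mt-Co2 (100%) also occurred outside chromosome M. The shares were 99.9% for mt-Co3, 99.5% for mt-Atp6, 98.8% for mt-Nd4l and 97.99% for mt-Nd3, then 62.2% for mt-Nd4 and 51.1% for mt-Co1. In mt-Nd2 and mt-Nd5 they were 8.19% and 7.61%. No word of mt-Nd1, mt-Nd6, mt-Cytb or mt-Atp8 was shared (0%). With words of 75 bases mt-Co1 had 39.8% and mt-Nd5 1.66%, and mt-Co2 still had 99.5%; the read length is not given in the sources used here. The deposited counts leave out reads with several alignments.

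Levels were compared between genes per kilobase of exon, and the lowest were those of genes with the most shared words. Averaged over the 6 libraries, mt-Co1 stood at 1271 CPM per kb, mt-Cytb at 1045, mt-Nd1 at 753, mt-Atp8 at 677, mt-Nd5 at 559, mt-Nd2 at 357, mt-Nd4 at 309.5, mt-Nd6 at 194 and mt-Atp6 at 175. Far below came mt-Nd3 at 30.4, mt-Nd4l at 15.01, mt-Co3 at 3.23 and mt-Co2 at 1.88 CPM per kb. The 4 lowest all shared over 95% of their words with nuclear transcripts, and mt-Atp6 was the other gene of that kind. mt-Co1 and mt-Co2, the highest and the lowest, are subunits of the same enzyme and are read from the same strand. The part of the copies in these levels was not tested.

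**Figure D2:**
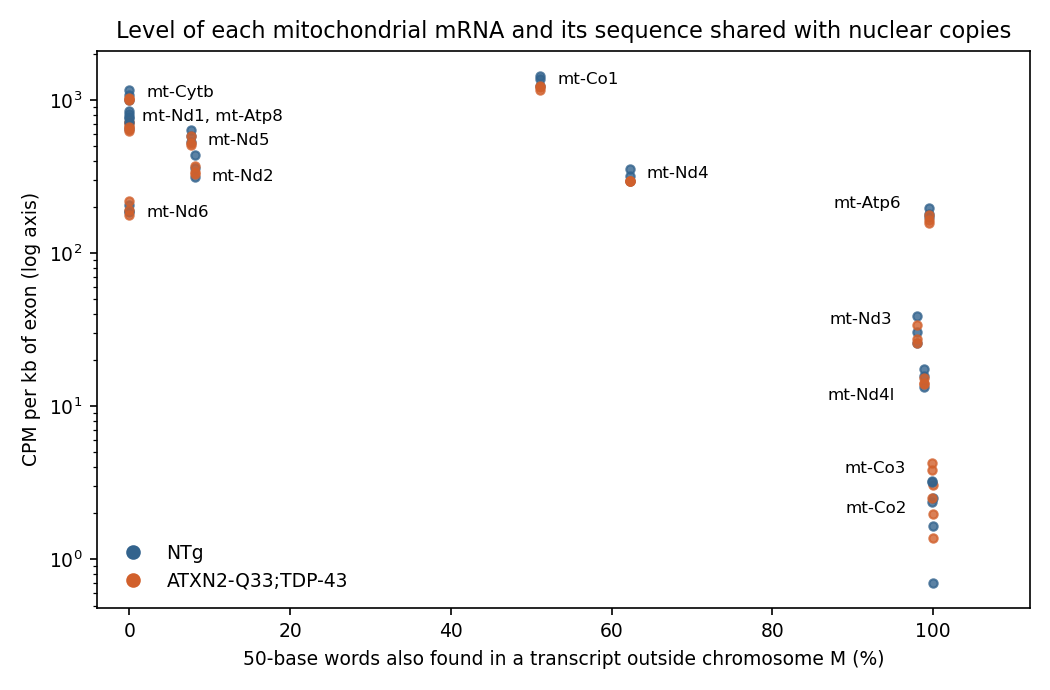
Level of each mitochondrial mRNA in each library (y axis, CPM per kb of exon, log axis) against the share of its 50-base words that also occur in a transcript outside chromosome M (x axis, percent), with a point per library colored by genotype. The 4 genes below 100 CPM per kb all lie at the right, between 97.99% and 100% of words shared.

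Counts at the copies were in part larger than those at the mitochondrial genes. mt-Co2 had 6, 26 and 25 counts in NTg replicates 7, 9 and 11 and 28, 14 and 26 in double-mutant replicates 8, 10 and 12. Gm28661 had 267, 500 and 732 counts and 457, 444 and 559 counts in the same libraries. Over all 6 libraries mt-Co3 had 244 counts against 2675 at Gm28437, and mt-Nd4l 428 against 1081 at Gm10222. Elsewhere the balance went the other way, with 11567 counts at mt-Atp6 against 3025 at Gm10925, 1062 at mt-Nd3 against 230 at Gm28438 and 191795 at mt-Co1 against 3715 at Gm29216. The 7 copies together held 120.1, 170.2 and 172 CPM for NTg against 196, 174 and 155 CPM for the double mutants. NTg replicate 7 was lowest and double-mutant replicate 8 highest, and the groups overlapped. Fitted fold changes of the 7 copies ran from 0.08 (Gm28661) to 0.33 (Gm28439), all positive, none past the test and each with overlapping groups. With the copies' counts added to their genes, mt-Co2 had a fold change of 0.09 in place of 0.38 and mt-Nd4l 0.09 in place of -0.09 on the log2 scale, and the median of the 13 mRNAs was -0.09 in place of -0.11.

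Overlapping reading frames are the other feature of this genome that touches the counts, since a fragment over several genes was counted for each. The last 43 bases of mt-Atp8 (chrM:7766-7969) are the first 43 of mt-Atp6, and the last 7 bases of mt-Nd4l are the first 7 of mt-Nd4. The ends of the upstream genes, with the shared bases in capitals, were as follows.
mt-Atp8, bases 145 to 204: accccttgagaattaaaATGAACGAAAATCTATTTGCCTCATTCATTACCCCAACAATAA
mt-Nd4l, bases 238 to 297: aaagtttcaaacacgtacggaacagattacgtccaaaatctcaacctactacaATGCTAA

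The 7 mitochondrial subunits of complex I form the core of its proton-pumping membrane arm. Of them, mt-Nd1 (chrM:2751-3707, the subunit at the quinone site) had 741, 805 and 770.2 CPM for NTg (replicates 7, 9 and 11) against 688, 643 and 677 CPM for the double mutants (replicates 8, 10 and 12). Every double-mutant library lay below every NTg library. Its log2 fold change was -0.21 ± 0.09 (SE; unadjusted p = 0.0432, adjusted p = 0.9996 in edgeR's quasi-likelihood test, exact permutation p = 0.1, the smallest that 3 against 3 libraries can give). mt-Nd4 had 409, 489 and 441 CPM for NTg against 407, 406 and 408 CPM for the double mutants. The double mutants lay close together, just under NTg replicate 7, and the log2 fold change was -0.13 ± 0.09 (SE). mt-Nd5 had 965, 1156 and 1054 CPM for NTg against 954, 1065 and 924 CPM for the double mutants, with overlap and a log2 fold change of -0.11. For mt-Nd2 the values were 327, 452 and 370.1 CPM for NTg against 351, 383 and 340.2 CPM for the double mutants. NTg replicate 9 was highest and NTg replicate 7 lowest of all 6, so the groups overlapped at a log2 fold change of -0.10, which was 0.04 without NTg replicate 9.

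mt-Nd6 is the one mRNA encoded on the other strand of the mitochondrial genome (chrM:13552-14070, minus strand). It had 98.3, 95.5 and 107 CPM for NTg against 113, 98.4 and 91.3 CPM for the double mutants. Double-mutant replicate 8 was highest and replicate 12 lowest, and the log2 fold change was 0.01 ± 0.10 (SE). The ratio of mt-Nd6 to the summed 12 mRNAs of the opposite strand was 0.0142 to 0.0171 in the NTg libraries and 0.0160 to 0.0199 in the double mutants, again with overlap. Both small genes that share most of their words were measured less well. mt-Nd3 had 8.94, 10.6 and 13.6 CPM for NTg against 9.05, 9.57 and 11.8 CPM for the double mutants (log2 fold change -0.12 ± 0.21, SE) and mt-Nd4l 4.67, 5.20 and 3.95 CPM for NTg against 4.23, 4.55 and 4.15 CPM for the double mutants (-0.09 ± 0.24).

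mt-Cytb, cytochrome b, is the only mitochondrial subunit of complex III (chrM:14145-15288). Its values were 1146, 1326 and 1223 CPM for NTg against 1141, 1164 and 1174 CPM for the double mutants. NTg replicates 9 and 11 were above the double mutants and NTg replicate 7 was among them, with a log2 fold change of -0.09 ± 0.09 (SE). mt-Co1, the catalytic subunit of complex IV (chrM:5328-6872), had 1891, 2207 and 2100.5 CPM for NTg against 1883, 1799.8 and 1902 CPM for the double mutants. The picture was the same, with NTg replicate 7 inside the range of the double mutants and a log2 fold change of -0.15 ± 0.10 (SE). mt-Atp8 and mt-Atp6, subunits of the membrane part of the ATP synthase, gave -0.14 and -0.14, from 131, 156 and 147 CPM for NTg against 127, 136 and 132 CPM for the double mutants for mt-Atp8. Fragments over the 43 bases that both genes hold were counted for each, and mt-Atp6 shares 99.5% of its words with other transcripts. How far its value repeats that of mt-Atp8 was not tested. mt-Co2 and mt-Co3 had the 2 highest fold changes of the 13, 0.38 ± 0.55 and 0.26 ± 0.35 (SE), on 0.48 to 2.08 CPM and 1.85 to 3.34 CPM, and both overlapped widely.

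**Figure D3:**
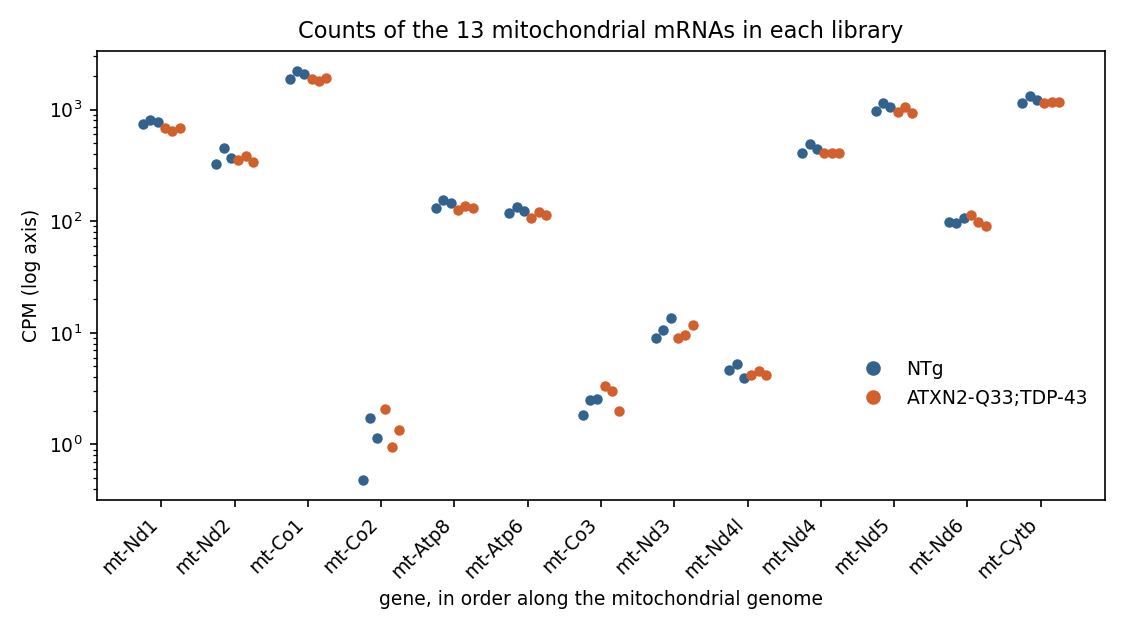
CPM of the 13 mitochondrial mRNAs (y axis, log axis) in each library, in order along the mitochondrial genome (x axis), with NTg replicates 7, 9 and 11 and then ATXN2-Q33;TDP-43 replicates 8, 10 and 12 from left to right for each gene. NTg replicate 9 is the highest NTg library for 10 of the 13, and mt-Co2, mt-Co3, mt-Nd3 and mt-Nd4l lie below 20 CPM.

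As a set, 10 of the 13 mitochondrial mRNAs had negative fold changes and 3 positive ones, with a median of -0.11. Over all 16248 genes, 48% were negative with a median of 0.01. Among the 8310 genes above 10 CPM, 53.8% were negative with a median of -0.01. The 13 mRNAs come from shared transcripts, so they are not 13 independent measurements. Among the 6 that share under 15% of their words with other transcripts (a limit chosen after the values were seen), 5 were negative with a median of -0.10. The summed level was 5842, 6841 and 6355 CPM for NTg against 5789, 5833 and 5781 CPM for the double mutants. The double mutants lay close together, just below NTg replicate 7. NTg replicate 9, high in oligodendrocyte markers, was the highest: without it the median of the 13 was -0.04, and without it and double-mutant replicate 10 it was -0.05. The rRNAs of the same genome, mt-Rnr1 and mt-Rnr2, had fold changes of -0.05 and -0.11, and the ratio of rRNA to mRNA counts ran from 7.03 to 7.81 with overlapping groups. The RNA had been depleted of rRNA, and the part of that depletion in these rRNA values was not tested.

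Nuclear complex I genes had 23 positive and 13 negative fold changes of 36, with a median of 0.03, and none passed the test (0 of 36, also at an unadjusted p under 0.05). On leaving out each library in turn, the negatives ran from 6 of 36 (without NTg replicate 11) to 20 (without double-mutant replicate 12). The summed level of the 36 genes was 497, 489 and 579.9 CPM for NTg against 527, 510.1 and 557 CPM for the double mutants. NTg replicate 11 was highest and NTg replicate 9 lowest, so the double mutants lay inside the NTg range. Per kilobase, levels ran from 1.01 CPM per kb (Ndufb2) to 24.8 (Ndufa2) and 24.7 (Ndufc2). Those last 2 did not differ beyond their spread. The divisor was the annotated exon length, 5628 bases for Ndufb2 and 572 for Ndufa2, so these ranks depend on it.

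The nuclear core subunits carry the electrons of complex I, from the flavin site (Ndufv1) through iron-sulfur clusters (Ndufv2, Ndufs1, Ndufs7, Ndufs8) towards quinone; Ndufs3 is a core subunit of the same arm. Of these 6, 2 had positive and 4 negative fold changes, with a median of -0.02. Ndufs8 (chr19:3908863-3912774) was the furthest from 0, with 15.5, 16.5 and 16.9 CPM for NTg against 14.5, 12.9 and 15.7 CPM for the double mutants and a log2 fold change of -0.18 ± 0.14 (SE, unadjusted p = 0.236 in edgeR's test). Double-mutant replicate 12 lay among the NTg libraries. Ndufs1, the largest subunit, had 32.3 to 38.1 CPM and a fold change of -0.04, and Ndufv1 had 16.4 to 23.6 CPM and 0.01. Ndufs7 varied most among the 6, from 13.6 CPM in double-mutant replicate 8 to 26.1 in double-mutant replicate 12, with a fold change of 0.01.

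Accessory subunits surround that core and serve its assembly and stability. Leaving out Ndufa4, which carries a complex I name but is now counted with complex IV, 20 of 29 had positive fold changes, with a median of 0.08. Over all 16248 genes, 52.0% were positive with a median of 0.01. The split of all 36 complex I genes changed with the library left out, as given above. Ndufs6, a zinc-binding subunit added late in assembly (chr13:73319838-73328542), had 4.27, 4.68 and 3.68 CPM for NTg against 4.75, 5.70 and 5.35 CPM for the double mutants. The lowest double mutant was just above the highest NTg library, and the log2 fold change was 0.33 ± 0.24 (SE, unadjusted p = 0.202 in edgeR's test). Ndufa3, a small membrane subunit (chr7:3617373-3620327), had 7.25, 8.23 and 8.08 CPM for NTg against 10.8, 9.02 and 9.04 CPM for the double mutants. All double mutants were above all NTg libraries, replicate 8 the furthest, with 0.29 ± 0.18 (SE, unadjusted p = 0.135 in edgeR's test). Ndufa10 (chr1:92439010-92473860) had 34.3, 29.4 and 32.9 CPM for NTg against 34.8, 35.96 and 34.4 CPM for the double mutants. The groups were only just apart, and the fold change was 0.12. Ndufs4, a subunit whose loss in mice gives a Leigh-like brain disease, had 18.8, 21.1 and 25.1 CPM for NTg against 27.5, 18.8 and 29.5 CPM for the double mutants. Double-mutant replicates 8 and 12 were the highest of all and replicate 10 was next to the lowest, so 0.22 ± 0.19 (SE) did not stand out from the spread. Ndufv3, in the peripheral arm, had a fold change of 0.20 at 14.2 to 21.9 CPM, with overlap.

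On the other side, Ndufb5, a membrane arm subunit (chr3:32736990-32751566), had 18.3, 12.8 and 15.3 CPM for NTg against 12.1, 10.99 and 13.2 CPM for the double mutants. NTg replicate 7 was the highest of the 6, and NTg replicate 9 lay below double-mutant replicate 12. Its fold change of -0.35 ± 0.17 (SE, unadjusted p = 0.075 in edgeR's test) was the most negative of the 57. Ndufa2 (chr18:36742332-36744557) had 13.4, 16.1 and 16.5 CPM for NTg against 14.5, 11.2 and 13.1 CPM for the double mutants, with double-mutant replicate 8 above NTg replicate 7 and a fold change of -0.25 ± 0.16 (SE). Ndufa7 (chr17:33824572-33838317) had 9.83, 10.1 and 11.1 CPM for NTg against 9.12, 9.77 and 9.40 CPM for the double mutants. The groups were only just apart, at a fold change of -0.14. Ndufa6, with 22.3 to 32.00 CPM, had -0.16, and -0.0039 without NTg replicate 11, its highest library. The 10 Ndufb genes of the membrane arm had 6 positive and 4 negative values and a median of 0.03. Ndufb3, at 2.11 to 6.08 CPM, had the widest interval of the 36, from -1.04 to 0.72. Ndufb2, Ndufb8 and Ndufb9 share 145, 134 and 201 exonic bases with another gene on their strand, so some of their fragments were counted for both.

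Most other accessory genes lay closer to 0. Ndufab1, the acyl carrier protein that also serves fatty acid synthesis in mitochondria, had 18.1, 18.6 and 21.8 CPM for NTg against 21.96, 19.6 and 18.9 CPM for the double mutants, with the highest value in a double mutant and the lowest in NTg, and a fold change of 0.05. Ndufa13, also known as GRIM-19, had 19.7, 16.7 and 20.3 CPM for NTg against 18.8, 20.7 and 21.6 CPM for the double mutants, where NTg replicate 9 was lowest and the rest overlapped (0.11). Ndufa9, a subunit near the quinone site that binds NADPH, had 19.2 to 24.5 CPM and 0.01. Ndufb10 had 20.7, 19.96 and 25.4 CPM for NTg against 26.2, 22.6 and 23.5 CPM for the double mutants, with NTg replicate 11 inside the double-mutant range (0.13). Both X-linked genes, Ndufa1 and Ndufb11, had fold changes of 0.13 and 0.01. The highest fold changes among these remaining genes were those of Ndufs5 (0.18, at 8.30 to 11.2 CPM) and Ndufb9 (0.15, at 8.54 to 15.9 CPM), and NTg replicate 7 was the lowest library for Ndufb9. Ndufa8, at 5.80 to 11.4 CPM, had the largest spread of them beside Ndufb3, with both extremes in NTg libraries.

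Some nuclear genes of complex I and III also share sequence with other genes. The share of 50-base words found in a transcript of another gene was 31.6% for Ndufb6 (neighbour Smim27) and 28.5% for Ndufa13 (Tssk6). It was 25.5% for Uqcrb (at least 4 gene models without a proper name) and 21.7% for Ndufs5 (BC002163). These 4 were the highest of the 44. Words were sought on both strands, and none of the 4 shared exonic bases with another gene on its own strand. How far the shared words make the values of these genes less certain was not tested. The fold changes of Ndufb6 and Uqcrb were 0.05 and 0.06.

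Complex III passes electrons from quinol to cytochrome c. Its 2 large core proteins (Uqcrc1, Uqcrc2) and the Rieske iron-sulfur protein (Uqcrfs1) had fold changes of -0.07, -0.05 and -0.07. Uqcrc1 (chr9:108936633-108949623) had 54.7, 62.4 and 62.9 CPM for NTg against 54.4, 53.3 and 63.99 CPM for the double mutants. Its highest and its lowest library were both double mutants. Uqcrfs1 was the most even gene of complex III, with 23.4, 21.9 and 23.9 CPM for NTg against 21.96, 20.6 and 23.1 CPM for the double mutants, and Uqcrc2 had 22.8 to 29.9 CPM. The 5 small subunits, Uqcrb, Uqcrq, Uqcrh, Uqcr10 and Uqcr11, had fold changes from -0.09 (Uqcr10) to 0.13 (Uqcrq). Uqcrq, a subunit that contacts cytochrome b, had 24.00, 21.7 and 32.3 CPM for NTg against 27.00, 26.6 and 32.1 CPM for the double mutants, with NTg replicate 11 and double-mutant replicate 12 high. Uqcrh, the hinge protein beside cytochrome c1, had 21.9, 22.00 and 28.9 CPM for NTg against 28.04, 19.2 and 26.6 CPM for the double mutants, with its lowest value in double-mutant replicate 10. Uqcrb had the highest level of the 44 nuclear genes of complex I and III taken here, at 34.5 CPM per kb. Uqcrc2 had the lowest of complex III at 10.2. Before division by exon length (4135 bases for Uqcrc1 and 876 for Uqcrb), Uqcrc1 was above Uqcrb in every library. Uqcr10 was the least even, with 10.1, 4.48 and 8.08 CPM for NTg against 7.27, 6.99 and 7.01 CPM for the double mutants: its 2 extremes were both NTg libraries. In sum the 8 genes gave 3 positive and 5 negative values with a median of -0.04, none past the test, and 195, 194 and 231 CPM for NTg against 203, 189 and 224 CPM for the double mutants. Cyc1, the cytochrome c1 subunit, was not among the 57 and had -0.06.

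The contrast of the 2 genomes was taken within each library, where library scaling cancels. The ratio of the summed mitochondrial mRNAs to the summed nuclear genes was 8.43, 10.02 and 7.84 for NTg against 7.93, 8.34 and 7.40 for the double mutants. The mitochondrial sum leaves out reads with several alignments. Of its NTg mean of 6346 CPM, mt-Co1, mt-Cytb, mt-Nd5 and mt-Nd1 held 2066, 1232, 1058 and 772 CPM. mt-Co2, mt-Co3, mt-Nd3 and mt-Nd4l held 1.11, 2.30, 11.04 and 4.61 CPM. NTg replicate 9 had the highest ratio and double-mutant replicate 12 the lowest, and the other 4 libraries lay between 7.84 and 8.43. The means were 8.76 ± 1.125 (SD, n = 3) and 7.89 ± 0.47 (SD, n = 3), a log2 difference of -0.14 against a pooled SD of 0.14. The groups overlapped, and the difference was about as large as the spread between libraries. It was -0.04 without NTg replicate 9. NTg replicates 7 and 9 are also the 2 libraries whose alignments are named as combined in the header of the table. With that as a covariate the difference was 0.0079, and NTg replicate 11 alone then stood for NTg. For complex I alone, the ratio of its 7 mitochondrial mRNAs to its nuclear genes was 5.13, 6.16 and 4.76 for NTg against 4.80, 5.12 and 4.41 for the double mutants. For complex III, the ratio of mt-Cytb to the 8 nuclear genes was 5.87, 6.84 and 5.30 for NTg against 5.62, 6.15 and 5.25 for the double mutants. Each of these overlapped too.

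The ratio of the nuclear sums to each other varied less. That of complex I to complex III was 2.55, 2.52 and 2.52 for NTg against 2.59, 2.70 and 2.49 for the double mutants, a log2 difference of 0.04 between the genotypes with a pooled SD of 0.04. The mitochondrial to nuclear ratio had a pooled SD of 0.14 on the same scale.

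**Figure D4:**
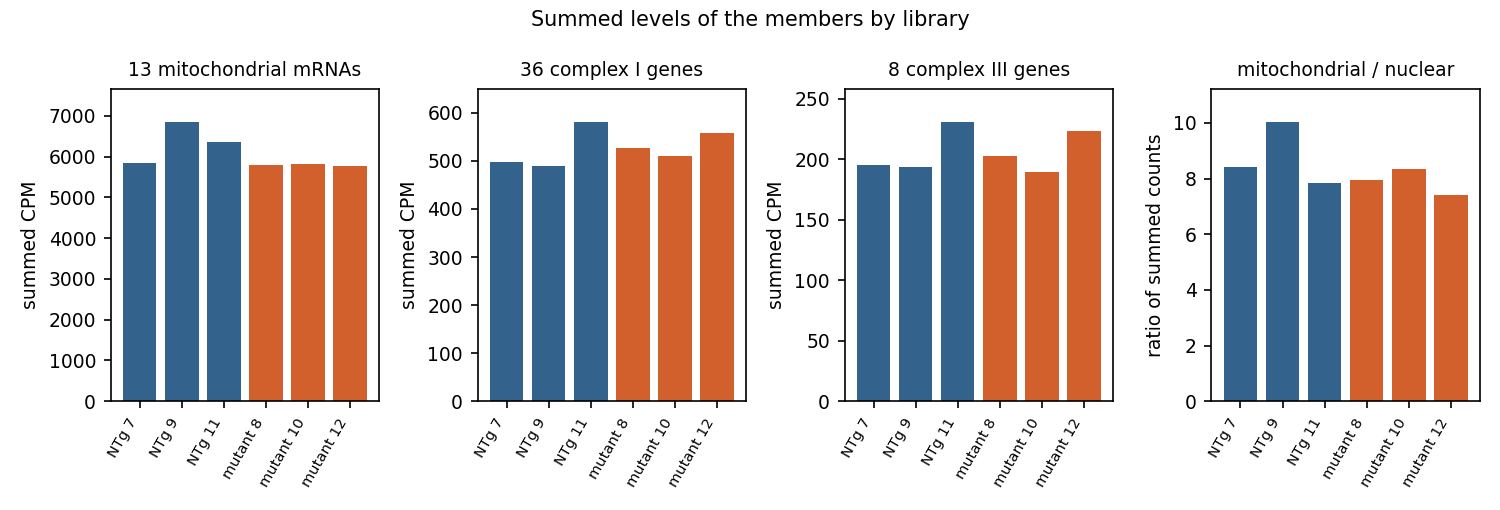
Summed CPM of the 13 mitochondrial mRNAs, the 36 complex I genes and the 8 complex III genes in each library, and the ratio of the summed mitochondrial mRNAs to the 44 nuclear genes (y axes), for NTg libraries (blue) and ATXN2-Q33;TDP-43 libraries (orange, called mutant on the x axis). NTg 9 has the highest mitochondrial sum and ratio and NTg 11 the highest nuclear sums, and in no panel but the first are the genotypes apart.

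Across libraries, complex I and complex III genes were high or low in much the same samples. The median deviation of the 36 complex I genes from their own means over the libraries was 0.14 (log2) in NTg replicate 11 and -0.12 in NTg replicate 7, and that of complex III was 0.19 and -0.09. Double-mutant replicate 12 was also above the mean for both, at 0.05 and 0.13. The mitochondrial mRNAs had their largest median deviation in NTg replicate 9, 0.17, where complex I and complex III stood at -0.08 and -0.14. The 10 microglial markers had median deviations of 0.23 in NTg replicate 11 and 0.26 in double-mutant replicate 12, the same libraries in which the nuclear genes were high, against -0.14 in NTg replicate 9, -0.31 in double-mutant replicate 10 and -0.02 in NTg replicate 7. NTg replicate 11 was also the deepest library and NTg replicate 7 the shallowest, which was lowest for complex I but not for complex III. The part of the microglial markers and of depth in these deviations was not tested.

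**Figure D5:**
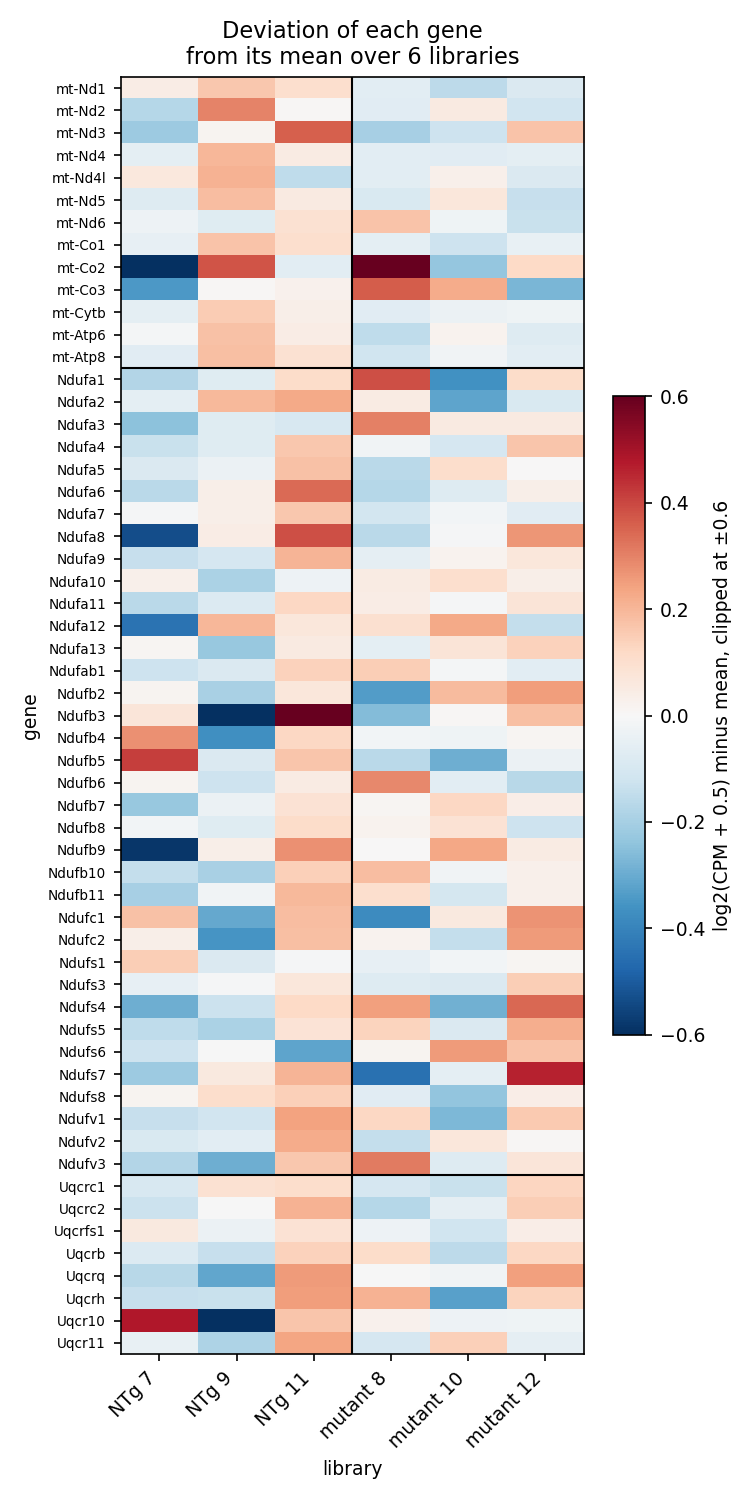
Deviation of log2(CPM + 0.5) of each of the 57 genes (y axis) from its mean over the 6 libraries (x axis, the ATXN2-Q33;TDP-43 libraries called mutant), as color from blue (lower) to red (higher), clipped at 0.6. NTg 9 is red across most mitochondrial mRNAs and blue across most nuclear genes, and NTg 11 is red across most of both.

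Other lists of the same machinery were read from the same fit, and none of their genes was called. Of the other chain components, complex II had 3 positive and 1 negative fold change (Sdhb 0.16, Sdhd 0.05), nuclear complex IV 2 and 9 (Cox8a -0.24, Cox7a2 -0.23) and the nuclear ATP synthase genes 7 and 8 (Atp5d -0.15, Atp5o -0.14). Cycs, cytochrome c, had -0.16. The 15 complex I assembly factors had 10 positive and 5 negative values with a median of 0.12. Ndufaf1, which helps build the membrane arm, had 1.61, 1.98 and 1.77 CPM for NTg against 2.97, 3.46 and 3.48 CPM for the double mutants. Ndufaf8, a partner of the assembly factor Ndufaf5, had 3.70, 4.94 and 4.45 CPM for NTg against 6.97, 5.97 and 6.75 CPM for the double mutants. In both, all double mutants were above all NTg libraries, with log2 fold changes of 0.89 ± 0.31 and 0.59 ± 0.23 (SE, unadjusted p = 0.0194 and 0.0287, both adjusted p = 0.9996 in edgeR's test). Ndufaf3, another assembly factor, went the other way without overlap, with 7.17, 7.84 and 6.04 CPM for NTg against 3.78, 5.22 and 5.40 CPM for the double mutants and a log2 fold change of -0.54 ± 0.24 (SE, unadjusted p = 0.0478, adjusted p = 0.9996 in edgeR's test). It was named after its values were seen. The 6 complex III assembly factors split 3 and 3, with Uqcc1 at 0.23 and Ttc19 at -0.27.

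Among the genes that make and handle mitochondrial RNA, the list for transcription and DNA maintenance had 3 positive and 8 negative fold changes. Twnk, the mitochondrial DNA helicase, had 12.97, 13.9 and 12.4 CPM for NTg against 9.05, 10.2 and 12.2 CPM for the double mutants. The double mutants were all below the NTg libraries, replicate 12 by little, at -0.32 ± 0.17 (SE, unadjusted p = 0.0918 in edgeR's test). Tefm, the elongation factor, had -0.25. The 17 genes of RNA processing and stability had 3 positive and 14 negative values and a median of -0.12, with Fastkd3 at -0.61 (1.26 to 3.43 CPM) and Supv3l1, a helicase of RNA decay, at -0.15 (20.4 to 25.4 CPM). Nuclear regulators of respiration genes gave 3 and 5, with Pprc1 at -0.17 and Ppargc1a at 0.84 on 0.681 to 2.99 CPM. Of the 78 mitochondrial ribosomal proteins, 33 were positive and 45 negative with a median of -0.03 (Mrpl28 0.44, Mrpl4 -0.33).

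Promoters of the nuclear genes were read from RefSeq (GRCm38.p6), 250 bases before to 50 after the start, and 38 of the 44 nuclear genes were matched. They were searched on both strands for motifs of 3 regulators of respiration genes: NRF1, the ETS family that includes GABP, and YY1. The full NRF1 palindrome, in capitals in the last 2 stretches shown, was in 2 of the 38 (5.26%), Ndufa11 and Uqcrc1, against 2.28% of 10634 tested genes with a promoter. Its core GCATGCGC, which lies inside the palindrome, was in 5 (13.2%), those 2 with Ndufa6, Ndufa8 and Uqcr11, against 5.80%. The ETS motif CCGGAAG was in 6 (15.8%) against 19.4%. The YY1 motif AAGATGGCG was in 5 (13.2%), against 3.46% of tested genes and 1.64% of all 27025 genes with a promoter. All 5 lay on the strand of the gene and began 23 to 36 bases from its start, counting the first base as 1. A match of letters is a description and not a binding site. The YY1 motif holds the letters ATG, and whether translation starts within these matches was not tested. The stretches of 30 bases around the matches are shown because they align the same letters at nearly the same distance from 5 starts, with the motif in capitals; the 2 NRF1 stretches follow.
Ndufa9, chr6:126849096-126849125, minus strand: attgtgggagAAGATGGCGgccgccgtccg
Ndufc1, chr3:51408914-51408943, minus strand: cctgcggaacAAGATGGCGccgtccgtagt
Ndufs4, chr13:114388045-114388074, minus strand: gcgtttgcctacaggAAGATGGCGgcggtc
Ndufs6, chr13:73328433-73328462, minus strand: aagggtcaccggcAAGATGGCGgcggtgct
Ndufs7, chr10:80249463-80249492, plus strand: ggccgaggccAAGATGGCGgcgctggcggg
Ndufa11, chr17:56717692-56717721, plus strand: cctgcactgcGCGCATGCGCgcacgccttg
Uqcrc1, chr9:108936668-108936697, plus strand: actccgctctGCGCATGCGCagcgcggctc

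The NRF1 motif began 31 bases from the start of Uqcrc1 and 60 bases before the start of Ndufa11. The 5 genes with the YY1 motif had fold changes of 0.01 (Ndufa9), -0.03 (Ndufc1), 0.22 (Ndufs4), 0.33 (Ndufs6) and 0.01 (Ndufs7), and none passed the test.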

How the data were processed

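RNA of 6 microglia libraries was depleted of rRNA and made into stranded low-input libraries, per the labels' protocols. The submitters' processing notes name Trim Galore 0.4.1, TopHat2, featureCounts and the build mm10. Per the file headers, the deposited values are raw fragment counts per gene (featureCounts 1.6.1, strand setting 2, GENCODE vM25), with fragments over several genes counted for each and no multiply aligned reads. The table's 6 columns of other samples were not used. Members and lists were chosen with earlier results of these data known.

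Counts were tested with edgeR 4.0.16 (R 4.3.3): filterByExpr with minimum count 10, TMM, a robust quasi-likelihood fit of genotype and Benjamini-Hochberg adjustment at 0.05. Permutation tests of log2(CPM + 0.5) were exact and two-sided. Alternatives were DESeq2 1.42.0 and voom in limma 3.58.1, with other scalings, filters, a covariate and left-out libraries. On simulated counts, 39.2% of genes changed 2-fold were called, and 76.0% of those above 10 CPM. The text names all 13 mitochondrial mRNAs, up to 5 nuclear genes in each direction by smallest p, the extremes of level, and the 2 genes of each further list with the smallest p; other members are named as part of the account. Library pairs differed by more than sampling noise. Shared words were sought in GENCODE vM21 transcripts.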

Additional observations from a re-analysis of the deposited data

How the results depend on the processing

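No member was called under any alternative run. The number of genes called over all genes was 0 in the reported fit, 7 with DESeq2, 6 without a filter on low counts, 1 without NTg replicate 9 and double-mutant replicate 10 together, and 0 to 2 when each library was left out in turn. No paired analysis was possible because the labels give the groups no shared replicate numbers. A block of neighbouring sample codes, which the labels do not call pairs, called 71 genes, none of them among the 57. With that block, 7 of the 57 were at an unadjusted p under 0.05 in edgeR's test, against 1 in the reported fit. The smallest adjusted p of the 57 was then 0.118 (mt-Nd1, edgeR's test). Genes under that unadjusted limit also rose over all 16248, from 368 in the reported fit to 1401 with the block. The median of the 13 mitochondrial mRNAs was negative in every fit and ran from -0.18 to -0.04 when each library was left out. For nuclear complex I that range was -0.017 to 0.14, the latter without NTg replicate 11, and for complex III -0.06 to 0.09. The difference between genotypes in the log2 ratio of mitochondrial to nuclear counts ran from -0.22 to -0.04. With the combined alignments of NTg replicates 7 and 9 as a covariate, the medians were -0.12 for complex I and -0.18 for complex III, and that difference was 0.0079. Signs of single genes turned at small values. With that covariate mt-Nd4l was 0.13, mt-Nd6 -0.084 and Ndufv3 -0.053, and with the copies added mt-Nd4l was 0.089. Leaving out a library gave mt-Nd2 -0.20 to 0.036, mt-Nd3 -0.25 to 0.059, mt-Nd4l -0.19 to 0.0014 and mt-Nd6 -0.077 to 0.077; without NTg replicate 9 and double-mutant replicate 10 together mt-Nd6 was -0.0039. The cause of these shifts was not tested. Adding the copies and leaving out both libraries were chosen after seeing the data. Depth and 3 libraries a group left the 95% interval within 1.5-fold for 37 of the 57 genes.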

Other observations

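The tRNAs that punctuate the mitochondrial genome were outside the report's comparisons. Of 22 mitochondrial tRNA genes, 15 had enough counts to be tested. Fold changes were positive for 8 and negative for 7, and none was called. mt-Tv, the valine tRNA between the 2 rRNAs, held most of the counts, with 224, 196 and 238 CPM for NTg against 372, 165 and 203 CPM for the double mutants. Double-mutant replicate 8 was far above the other libraries, and the groups overlapped. The next highest was mt-Tl1, with 14.3, 22.3 and 17.4 CPM for NTg against 15.2, 21.1 and 18.1 CPM for the double mutants. Fragments over several genes were counted for each, and the part of the rRNAs beside mt-Tv in its counts was not tested. mt-Ta, the alanine tRNA, was low at 0.483, 0.395 and 0.908 CPM for NTg against 1.48, 0.950 and 1.51 CPM for the double mutants, with every double-mutant library above every NTg library and a log2 fold change of 1.11 ± 0.53 (SE, unadjusted p = 0.0644, adjusted p = 0.9996 in edgeR's test). mt-Tq was also higher without overlap, at 0.59. mt-Tr went the other way, with 1.29, 0.922 and 0.862 CPM for NTg against 0, 0.814 and 0.623 CPM for the double mutants, every double-mutant library below every NTg library. These were 2 higher and 1 lower of 15, beside 3.27% and 3.58% of all genes without overlap. All tRNAs together made up 0.0242% to 0.0420% of the counts.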
